A study of Homo sapiens with 2 samples.

Results

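The genes described here are the matrix metalloproteinases (MMP), the ADAM and ADAMTS metalloproteinases and the tissue inhibitors of metalloproteinases (TIMP). They were taken by symbol, as the numbered MMP, ADAM, ADAMTS and TIMP genes of the deposited expression table. This gave 67 of its 50868 genes: 22 MMP, 22 ADAM, 19 ADAMTS and 4 TIMP genes. RNA was sequenced from a sorafenib-resistant culture and from an untreated WT culture, both labelled HepG2, a human hepatocellular carcinoma line, with 1 library each. Resistance had been raised by exposure to increasing sorafenib, a multikinase inhibitor used against liver cancer, from 2.5 µM in steps of 0.5 µM up to 7 µM. The sources used here do not say whether the drug was present at harvest, and each condition rests on a single library.

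Metalloproteinases of these families are made as inactive proenzymes whose catalytic zinc is blocked by the propeptide until furin-like proprotein convertases or other proteases remove it. MMPs cut collagens, gelatins, laminins and other matrix proteins, and some of them stay anchored in the plasma membrane. ADAMs are transmembrane proteins, of which ADAM10 and ADAM17 shed the outer parts of growth factors, cytokine receptors and adhesion molecules, while several ADAMs lack the catalytic residues. ADAMTS enzymes are secreted and act on proteoglycans, procollagens and von Willebrand factor. TIMPs bind the active site and block it. In the liver these enzymes are best known from the turnover of scar matrix in fibrosis and from tumour invasion.

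The resistant library held 16811907 counts and the WT library 18067146. With 1 library per group no value has a replicate check, no test of the conditions was possible, and every 95% interval below covers counting error only. A count of 0 allows a level of up to 0.179 CPM in the resistant library and 0.166 CPM in the WT library (3 counts; CPM, the counts scaled to a common library size with TMM factors). The labelled cell type was not borne out by its defining markers. Of 12 hepatocyte and HepG2 markers 10, among them ALB, AFP and APOB, had 0 counts in both libraries, and the other two, HNF4A and TF, had at most 2 counts in either. Of 11 fibroblast and stellate cell markers 7 were measured, and the list summed to 442 CPM in the resistant and 425 CPM in the WT library, with COL1A2 and PDGFRA at 0. Of those 7 genes 6 were above 0 in log2 ratio, with a median of 0.28, beside 7292 of all 14686 measured genes above 0. COL3A1, with 3267 counts in the resistant and 3941 in the WT library, was below. The 6 endothelial markers summed to 6.03 CPM in the resistant and 2.76 CPM in the WT library, with KDR and CLDN5 at 0 and CDH5 at 72 and 20 counts in the resistant and the WT library, and the 7 leukocyte and macrophage markers to 23.1 and 15.5 CPM in the resistant and the WT library, with PTPRC at 0. Their part in the results was not tested, and in such bulk samples fewer cells of a type and less RNA per cell cannot be told apart.

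The metalloproteinase and TIMP genes summed to nearly the same level in both libraries, and single genes differed in both directions. Genes reaching 1 CPM in either library are called measured, and a gene was past the size rule when the log2 ratio of CPM plus 1, resistant over WT, was at least 1 or at most -1. Of the 67 genes 29 were measured, or 43.3%, beside 61.8% of all protein-coding genes. By this rule none of the 29 was higher in the resistant library, against 1.31% of all 14686 measured genes, and 1 was lower, ADAMTS4, against 0.994% of them. In either direction this is 1 of 29 genes, against 2.30% of all measured genes. The median log2 ratio of the 29 genes was -0.02, and that of all measured genes was -0.0018. In 15 of the 29, or 51.7%, the log2 ratio lay within 0.25 of 0, which held for 67.6% of all measured genes. All 67 genes together took 0.160% of the counts in the resistant library and 0.160% in the WT library.

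**Figure D1:**
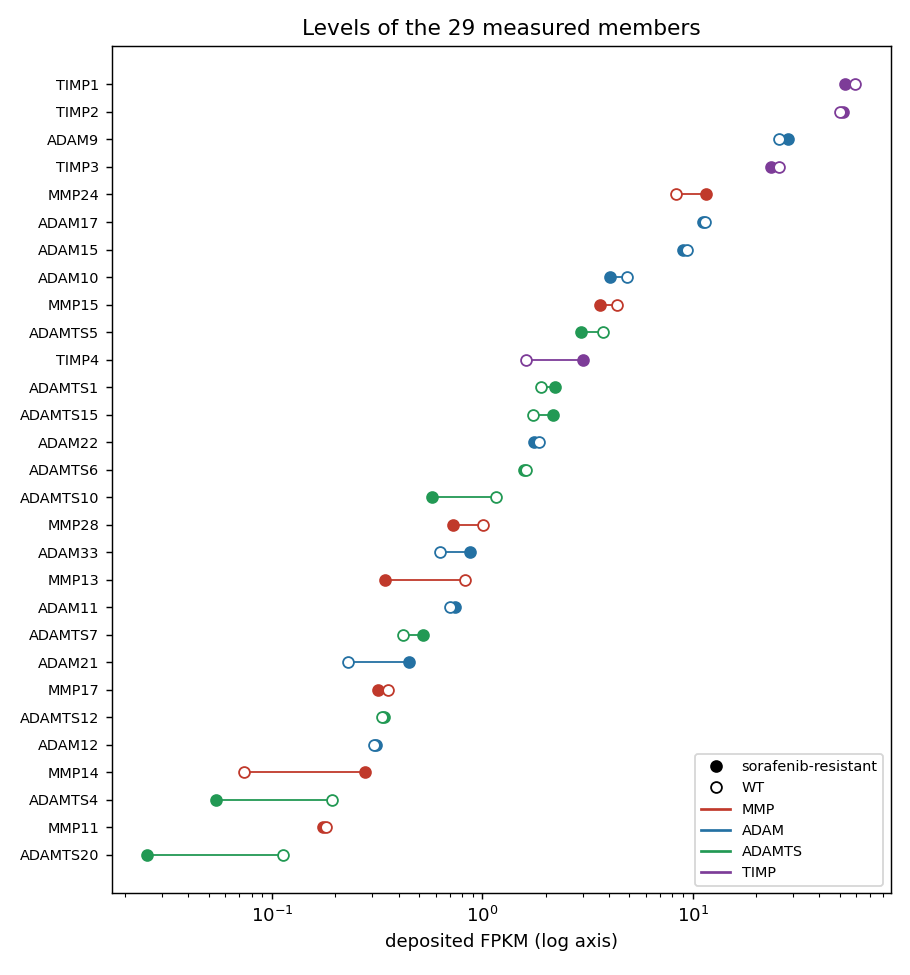
Deposited FPKM on a log axis for each of the 29 measured genes, with filled points for the sorafenib-resistant library, open points for the WT library and 1 colour per family. TIMP1 and TIMP2 stand at the top near 50 FPKM, and filled and open points lie far apart only low on the axis, as for MMP14 and ADAMTS20.

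Levels of different genes were compared per length with the deposited FPKM, with a caution on what that length is. For 28 of the 29 measured genes the length behind the FPKM equalled, within 1%, the summed length of all distinct annotated exons, so that exons shared by several isoforms with different ends were counted repeatedly. This length was up to 3.55 times the longest annotated transcript (median 1.61 times), and the FPKM of genes with many isoforms is lower for it. On the FPKM scale the TIMP genes summed to 131 in the resistant and 137 in the WT library, against 85.1 and 82.2 for the 63 protease genes. In CPM per kilobase of the longest transcript, the 4 TIMP genes summed to 271 in the resistant and 279 in the WT library, and the 25 measured protease genes to 182 and 174. On both scales the inhibitor transcripts outnumbered those of the proteases in both libraries.

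TIMP1, the broadly acting inhibitor, had 2009 counts in the resistant and 2418 in the WT library, or 52.9 and 59.2 FPKM, a CPM ratio of 0.898 (95% interval 0.846 to 0.953). TIMP2, which also takes part in the activation of proMMP2 at the cell surface, had 8259 counts in the resistant and 8599 in the WT library, or 52.0 and 50.4 FPKM, a ratio of 1.04 (1.01 to 1.07). TIMP3, which stays bound to the matrix and inhibits ADAM17 and several ADAMTS enzymes as well, had 1823 counts in the resistant and 2141 in the WT library, a ratio of 0.920 (0.864 to 0.980). These 3 inhibitors thus differed by little between the libraries, and which of TIMP1 and TIMP2 was more abundant depended on the length used: TIMP2 stood at 0.984 times TIMP1 in resistant FPKM, and at 1.23 times per kilobase of the longest transcript.

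TIMP4, an inhibitor with a narrow tissue range (ENSG00000157150; chromosome 3, 12153051 to 12159351, minus strand, GRCh38), was the TIMP with the largest difference. It had 84 counts in the resistant and 48 in the WT library, or 3.03 and 1.61 FPKM, a ratio of 1.89 (1.31 to 2.76) and a log2 ratio of 0.72, short of the size rule. The gene lies within SYN2 on the other strand and shares exon positions with it. The counting is not stated to use strand, SYN2 had 0 counts in the resistant and 4 in the WT library, and the sum of both had a log2 ratio of 0.64.

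Among the MMP genes the membrane-anchored ones supplied most transcripts, with 15.8 of 17.2 summed FPKM in the resistant and 13.1 of 15.4 in the WT library. MMP24, a transmembrane MMP known from the nervous system (ENSG00000125966; chromosome 20, 35226654 to 35277000, plus strand), had 857 counts in the resistant and 663 in the WT library, or 11.5 and 8.31 FPKM, a ratio of 1.40 (1.26 to 1.55). It shares exon positions with the antisense gene MMP24OS, which went the other way with 366 counts in the resistant and 405 in the WT library, and the sum of both had a log2 ratio of 0.30 against 0.47 for MMP24 alone. MMP15, a further transmembrane MMP, had 282 counts in the resistant and 363 in the WT library, a ratio of 0.840 (0.716 to 0.984). MMP17, held by a lipid anchor, had 46 and 55 counts in the resistant and the WT library, a ratio of 0.904 (0.598 to 1.36), and MMP16 and MMP25 had 0 counts in both.

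MMP14, the membrane-anchored collagenase that activates proMMP2 (ENSG00000157227; chromosome 14, 22836557 to 22849027, plus strand), had the highest ratio of all 29 genes at a low level. It had 28 counts in the resistant and 8 in the WT library, or 0.277 and 0.0736 FPKM, a ratio of 3.78 (1.68 to 9.61). Its log2 ratio with 1 CPM added was 0.89, just short of the size rule, and with 0.5 CPM added it was 1.205, past the rule. MMP2, the gelatinase it activates, had 3 counts in the resistant and 1 in the WT library. MMP9, the other gelatinase, had 0 counts in the resistant and 4 in the WT library, so neither gelatinase could be compared at this depth.

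MMP13, a secreted collagenase (ENSG00000137745; chromosome 11, 102942995 to 102955734, minus strand), had 18 counts in the resistant and 46 in the WT library, a ratio of 0.423 (0.231 to 0.744) and a log2 ratio of -0.77. It was the 1 measured gene among the 9 MMP genes clustered between 102520508 and 102955734 on chromosome 11. The other 8 there, MMP1, MMP3, MMP7, MMP8, MMP10, MMP12, MMP20 and MMP27, had at most 1 count each in the resistant library, and at most 5 in the WT library, where the 5 belonged to MMP12, the macrophage elastase. MMP28, a secreted MMP known from skin, had 60 counts in the resistant and 89 in the WT library, a ratio of 0.729 (0.516 to 1.02). MMP11, which furin activates, had 28 and 31 counts in the resistant and the WT library, a ratio of 0.976 (0.564 to 1.68), and it shares exon positions with the more abundant CHCHD10 on the other strand. MMP19 had 9 counts in the resistant and 2 in the WT library and lies across exons of TMEM198B.

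The shedding enzymes of the ADAM family were abundant in both libraries. ADAM9 (ENSG00000168615) had 5875 counts in the resistant and 5702 in the WT library, or 28.5 and 25.7 FPKM, a ratio of 1.11 (1.07 to 1.16). ADAM17, the sheddase of tumour necrosis factor and of several EGF receptor ligands, had 1349 and 1469 counts in the resistant and the WT library, or 11.2 and 11.4 FPKM, a ratio of 0.993 (0.921 to 1.07). ADAM17 shares exon positions with IAH1 on the other strand, which had 395 counts in the resistant and 390 in the WT library. The sum of ADAM17 and IAH1 had a log2 ratio of 0.02. ADAM10, the sheddase of Notch and cadherins, had 1561 counts in the resistant and 2023 in the WT library, a ratio of 0.834 (0.780 to 0.891). ADAM15 had 2053 and 2306 counts in the resistant and the WT library, a ratio of 0.962 (0.906 to 1.02). Of these 4, ADAM10 differed most, and its interval lay below 1.

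The remaining ADAM genes had lower levels. ADAM22, a catalytically inactive receptor for LGI proteins of the nervous system, had 434 counts in the resistant and 489 in the WT library, a ratio of 0.959 (0.841 to 1.09), and ADAM11, also inactive, 103 and 104 counts in the resistant and the WT library, a ratio of 1.07 (0.807 to 1.42). ADAM33, known as an asthma susceptibility gene, had 174 counts in the resistant and 136 in the WT library, a ratio of 1.38 (1.10 to 1.74). ADAM21, known from testis, had 20 counts in the resistant and 11 in the WT library, a ratio of 1.97 (0.898 to 4.54). ADAM12, which is spliced into a secreted and a membrane form, had 55 counts in the resistant and 58 in the WT library, a ratio of 1.03 (0.696 to 1.51). The intervals of ADAM22, ADAM11, ADAM21 and ADAM12 included 1, which does not show that their levels were alike.

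ADAMTS4, an aggrecan-cleaving enzyme (ENSG00000158859; chromosome 1, 161184308 to 161199056, minus strand), was the gene past the size rule. It had 11 counts in the resistant and 42 in the WT library, or 0.0542 and 0.192 FPKM, and was 3.53-fold lower in the resistant library (1.79 to 7.61), with a log2 ratio of -1.002 at the very edge of the rule. The call was lost with 5 CPM added, at -0.37, with the deposited FPKM plus 0.1, at -0.92, and where a larger count of at least 50 was required. ADAMTS20, a further proteoglycan-cleaving enzyme, had 4 counts in the resistant and 19 in the WT library and was 4.39-fold lower (1.46 to 17.8), with a log2 ratio of -0.73. ADAMTS5, the other main aggrecanase, had 450 counts in the resistant and 610 in the WT library, a ratio of 0.797 (0.704 to 0.902). ADAMTS1 and ADAMTS15, which cleave proteoglycans too, were above 1. ADAMTS1 had 410 counts in the resistant and 380 in the WT library, a ratio of 1.17 (1.01 to 1.34), and ADAMTS15 had 206 in the resistant and 178 in the WT library, a ratio of 1.25 (1.02 to 1.54). The proteoglycanases therefore did not share a direction: of 5 measured, 2 were above and 3 below 1.

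ADAMTS10, which acts on fibrillin microfibrils (ENSG00000142303; chromosome 19, 8580242 to 8610735, minus strand), had the largest difference among genes of more than 100 counts. It had 96 counts in the resistant and 209 in the WT library, or 0.576 and 1.17 FPKM, a 2.01-fold lower level in the resistant library (1.57 to 2.59). Its log2 ratio with 1 CPM added, -0.90, was just short of the size rule. ADAMTS6, its close relative, had 365 and 400 counts in the resistant and the WT library, a ratio of 0.986 (0.854 to 1.14). ADAMTS7 and ADAMTS12, which cut the cartilage protein COMP, had ratios of 1.25 (0.922 to 1.70) and 1.03 (0.721 to 1.48) at 95 and 64 resistant counts against 82 and 67 WT counts. In the authors' deposited table, which compares the same 2 libraries, 42 of the genes had a fold change. Its calls do not follow fold size alone. ADAMTS20 at a log2 fold change of -2.14, MMP14 at 1.91 and MMP13 at -1.25 were among those not called. ADAMTS4 at a log2 fold change of -1.83 and ADAMTS10 at -1.02 were called DOWN there, against 1.03% of all genes compared, and none of the 42 was called UP, against 1.26%.

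**Figure D2:**
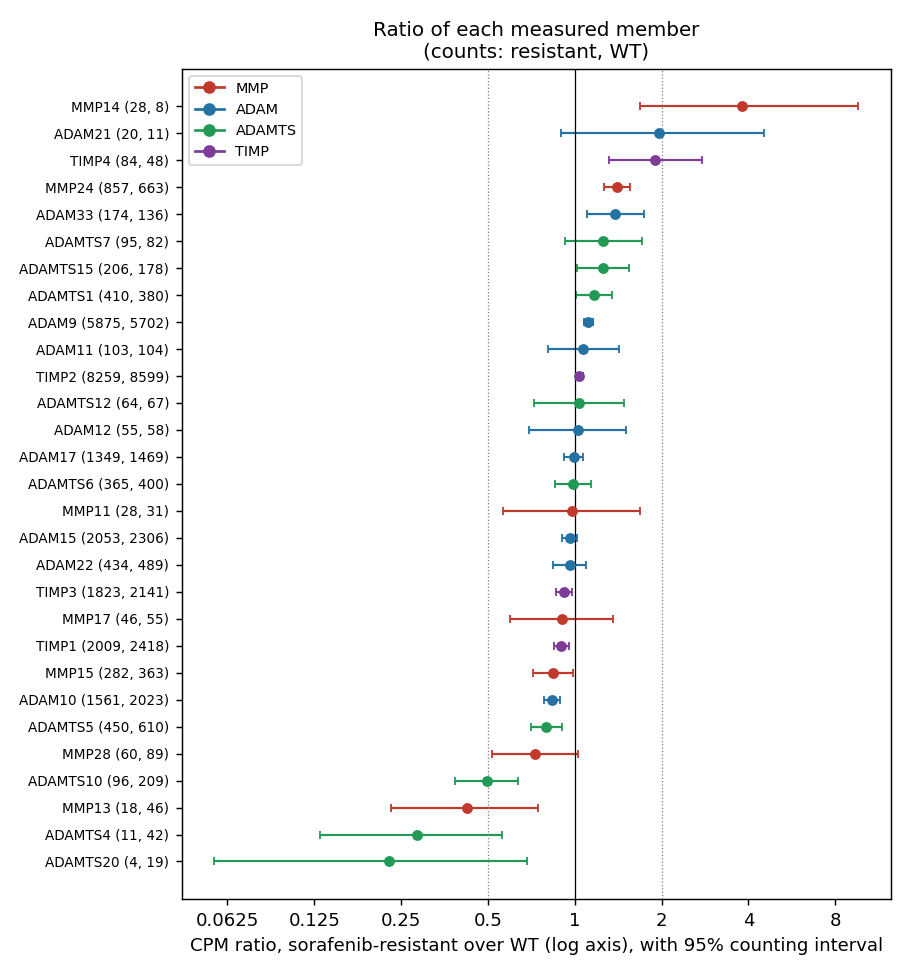
CPM ratio of the sorafenib-resistant over the WT library on a log axis for the 29 measured genes, with 95% counting intervals, coloured by family, and with the resistant and then the WT count beside each name. The abundant TIMP and ADAM genes lie close to 1 with short intervals, and the ratios farthest from 1, of MMP14 at 3.78 and ADAMTS20 at 0.228, have the widest ones.

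The other 38 genes were not measured. In both libraries 21 of them had 0 counts: ADAM2, ADAM5, ADAM6, ADAM7, ADAM18, ADAM19, ADAM28, ADAM29, ADAM30, ADAMTS9, ADAMTS17, ADAMTS19, MMP3, MMP8, MMP10, MMP16, MMP20, MMP21, MMP25, MMP26 and MMP27. ADAM5 and ADAM6 are annotated as pseudogenes. Another 8 had at most 3 counts in either library, namely MMP1, MMP2, MMP7, ADAM20, ADAMTS2, ADAMTS8, ADAMTS14 and ADAMTS18. The last 9 had more than 3 counts in a library but under 1 CPM: MMP9, MMP12, MMP19, ADAM8, ADAM23, ADAM32, ADAMTS3, ADAMTS13 and ADAMTS16. ADAMTS13, the von Willebrand factor protease that the stellate cells of the liver make, had 14 counts in the resistant and 15 in the WT library. The procollagen N-proteinases ADAMTS2, ADAMTS3 and ADAMTS14 had 2, 8 and 1 counts in the resistant and 2, 16 and 1 in the WT library.

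Several members lie next to each other in the genome and still differed widely in level. ADAMTS15 had 206 counts in the resistant and 178 in the WT library, whereas its neighbour ADAMTS8 on chromosome 11 had 0 and 1. ADAM9 had 5875 counts in the resistant and 5702 in the WT library, and the adjacent ADAM32 had 8 in the resistant and 10 in the WT library, with 0 in both for ADAM5, ADAM18 and ADAM2 beyond it. ADAMTS1 and ADAMTS5 on chromosome 21 were the neighbours that were both well expressed.

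Promoter sequence was examined as a feature the choice of genes did not use. RefSeq windows on GRCh38.p14, from 250 bases before to 50 after a gene start, were matched for 38 of the 67 genes, using the window nearest the deposited gene start. All members that share a chromosome with ADAM9 were left out of the 38, as was ADAM9 itself, the most abundant ADAM gene. Among them ADAM2, ADAM5, ADAM7, ADAM18, ADAM28 and MMP16 had 0 counts in both libraries, and ADAM32 was not measured. No window was matched either for the measured genes ADAMTS4, MMP13, TIMP2, ADAM11, ADAM33, ADAMTS1, ADAMTS5, ADAMTS15, MMP17 and MMP28. The same held for MMP1, MMP2, MMP3, MMP9, MMP12, MMP19, MMP25, ADAM6, ADAMTS8, ADAMTS9 and ADAMTS16, which were not measured. The window comparisons and motif shares below cover none of the genes left out or without a window. The median number of CG dinucleotides was 29.5 in the windows of the 18 measured genes, beside 14 in all 35116 windows. It was 4 in those of the 11 genes with 0 counts in both libraries, out of 21 such genes. Among these 11, the windows of ADAM29 and MMP8, with 4 and 2 CG, lie 88690 and 2096 bases from the deposited gene start. Among the 18, that of MMP11, with 28 CG, lies 4623 bases away. The 9 genes with a few counts, at most 16 in a library, had a median of 30 and a range of 0 to 47, close to the measured genes, and all 20 genes not measured had a median of 14. The measured genes included exceptions such as ADAM21 with 1 CG, and the genes with 0 counts included ADAMTS17 with 28. This is a description, in which base composition and gene family go together. The windows of MMP14 and TIMP4, the measured MMP and the TIMP with the highest ratios, held 10 and 12 CG dinucleotides. They are shown with those of MMP24, the most abundant MMP gene, with 37, and of MMP7, a matrilysin of the chromosome 11 cluster with 1 count in the resistant and 0 in the WT library, with 4. Sequences run 5′ to 3′ on the gene's strand, and capitals mark CG dinucleotides. The windows are chr14:22836335-22836634 (plus strand), chr3:12158863-12159162 (minus), chr20:35226440-35226739 (plus) and chr11:102530698-102530997 (minus).
MMP14: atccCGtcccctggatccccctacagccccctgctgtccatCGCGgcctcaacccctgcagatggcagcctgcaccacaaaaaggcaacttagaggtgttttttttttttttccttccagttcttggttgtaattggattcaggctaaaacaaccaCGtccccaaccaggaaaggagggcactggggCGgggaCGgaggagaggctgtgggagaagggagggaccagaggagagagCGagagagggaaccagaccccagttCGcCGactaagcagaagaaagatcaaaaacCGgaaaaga
TIMP4: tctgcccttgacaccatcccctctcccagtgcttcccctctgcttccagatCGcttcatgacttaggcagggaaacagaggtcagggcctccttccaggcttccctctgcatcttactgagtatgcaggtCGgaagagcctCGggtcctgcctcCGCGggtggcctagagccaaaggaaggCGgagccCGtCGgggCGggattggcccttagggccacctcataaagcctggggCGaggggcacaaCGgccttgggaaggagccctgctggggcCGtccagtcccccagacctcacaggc
MMP24: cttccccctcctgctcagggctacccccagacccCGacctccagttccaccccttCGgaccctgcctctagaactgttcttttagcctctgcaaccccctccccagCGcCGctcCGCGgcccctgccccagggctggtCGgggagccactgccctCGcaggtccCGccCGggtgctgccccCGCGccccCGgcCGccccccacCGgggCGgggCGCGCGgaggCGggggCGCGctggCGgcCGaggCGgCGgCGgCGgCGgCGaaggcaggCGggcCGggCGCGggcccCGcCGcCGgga
MMP7: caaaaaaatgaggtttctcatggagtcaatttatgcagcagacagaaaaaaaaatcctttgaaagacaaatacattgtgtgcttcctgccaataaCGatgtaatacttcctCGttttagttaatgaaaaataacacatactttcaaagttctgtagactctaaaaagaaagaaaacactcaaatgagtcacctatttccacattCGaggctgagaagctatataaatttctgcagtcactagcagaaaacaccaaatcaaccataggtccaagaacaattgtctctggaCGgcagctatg

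**Figure D3:**
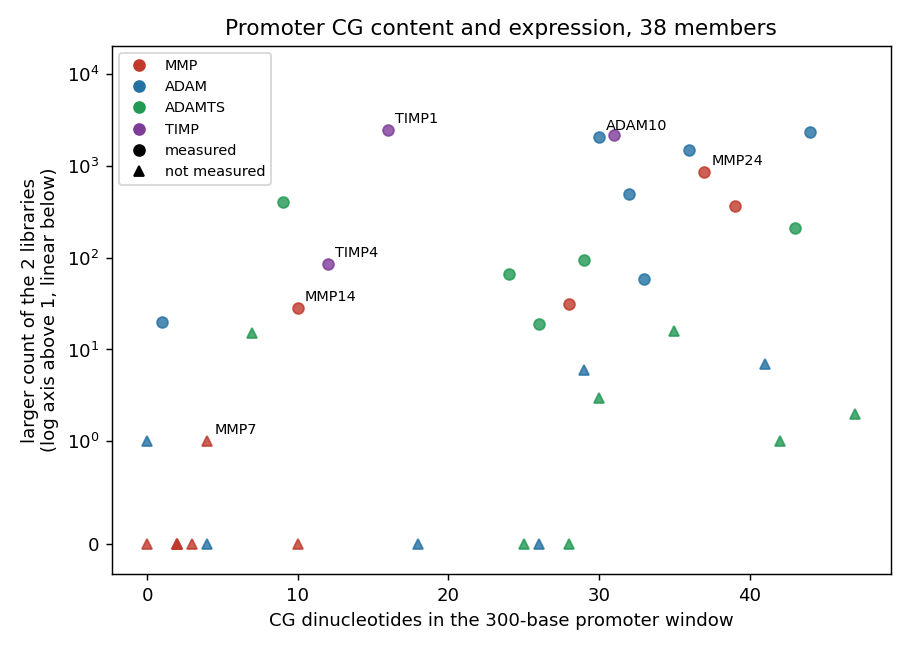
Number of CG dinucleotides in the promoter window (x axis) against the larger count of the 2 libraries (y axis, logarithmic above 1), for 38 genes coloured by family, with circles for measured genes and triangles for the rest. Windows with under 10 CG dinucleotides belong mostly to genes at or near 0 counts, with ADAM21 and ADAMTS6 as measured exceptions, and the 9 genes of low counts that were not measured span 0 to 47.

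Short motifs were searched on both strands of the same windows. The AP-1 site TGAGTCA is the element through which phorbol esters and FOS-JUN dimers act on MMP promoters. It was present in 4.95% of all windows and in 1 of the 38, that of MMP7. The promoters of MMP1, MMP2, MMP3, MMP9, MMP12, MMP13, MMP16, MMP17, MMP19, MMP25 and MMP28 were not among the 38 and were not searched. How common the site is among MMP genes can therefore not be read from this share. The ETS core AGGAAG was present in 33.6% of all windows and in 10 of the 38 genes, among them TIMP1, TIMP4, ADAM10 and ADAM17. TATAAA was present in 11.5% of all windows and in 8 of the 38, of which MMP7, MMP8, MMP10 and MMP20 lie in the chromosome 11 cluster. None of the searched motifs was found in the window of MMP14. Some windows start far from the deposited gene start: that of ADAM29 by 88690 bases, ADAMTS13 by 8009, MMP11 by 4623 and MMP8 by 2096, with the TIMP4 window 439 bases away. A match describes letters only, and the window says nothing of sites outside it. The AP-1 match of MMP7 starts 67 bases before the gene start (chr11:102530797-102530825), and its TATAAA starts 30 bases before (chr11:102530761-102530788). Those of MMP10 and MMP20 start 31 and 72 bases before (chr11:102780643-102780670 and chr11:102625388-102625415). All are on the minus strand, and capitals mark the motif. In the labels, TATA element means a match of TATAAA at any position in the window.
MMP7 AP-1 site: aaacactcaaaTGAGTCAcctatttccac
MMP7 TATA element: ctgagaagctaTATAAAtttctgcagtc
MMP10 TATA element: cattgtctctgTATAAAagaaaggccac
MMP20 TATA element: ctgtttgactcTATAAAaggagctcaag

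Transcription factors known to act on such promoters were followed as a list of 17 genes, all measured. The median log2 ratio was 0.18, with 10 genes above 0 and 1 past the size rule. Over all measured genes, 7292 of 14686 were above 0 and 2.30% were past the rule. RUNX2, which drives MMP13 in bone cells, was the 1 past the rule, with 91 counts in the resistant and 31 in the WT library, a ratio of 3.17 (2.09 to 4.94). The AP-1 gene FOSL1 had 111 and 55 counts in the resistant and the WT library and a log2 ratio of 0.92, and JUN 590 and 416 counts and one of 0.60. The more abundant JUNB and JUND went the other way. JUNB had 2926 counts in the resistant and 4062 in the WT library, a ratio of 0.779 (0.742 to 0.817), and JUND 2220 in the resistant and 3233 in the WT library, a ratio of 0.742 (0.703 to 0.784). ETV1, of the ETS family, had 514 counts in the resistant and 819 in the WT library, a ratio of 0.678 (0.606 to 0.758).

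Inhibitors outside the TIMP family included the largest difference found around these enzymes. SPOCK1, which encodes testican-1, a matrix proteoglycan with protease-inhibitor domains, had 285 counts in the resistant and 80 in the WT library, a ratio of 3.85 (3.00 to 5.00) and a log2 ratio of 1.73. Of the 7 inhibitor genes 3 were measured, and SPOCK1 was the 1 past the size rule, against 2.30% of all measured genes. RECK, a membrane-bound inhibitor of several MMPs, had 423 and 414 counts in the resistant and the WT library, a ratio of 1.10 (0.962 to 1.27). SPOCK2 had 19 and 25 counts in the resistant and the WT library, and TFPI2 had 1 and 0.

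Among 12 genes that activate or induce metalloproteinases, 9 were measured, with a median log2 ratio of -0.13. None was past the size rule, against 2.30% of all measured genes. FURIN, the convertase that activates ADAMs, ADAMTS enzymes and the membrane MMPs, had 2611 counts in the resistant and 3921 in the WT library, a ratio of 0.720 (0.685 to 0.757). BSG, which encodes the MMP inducer basigin, had 7577 and 9369 counts in the resistant and the WT library, a ratio of 0.874 (0.848 to 0.901). PLAT, the tissue plasminogen activator gene, had 380 counts in the resistant and 266 in the WT library, a ratio of 1.54 (1.32 to 1.81). PLAU had 18 and 28 counts in the resistant and the WT library and PCSK6 a ratio of 1.21 (1.07 to 1.37).

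Of 9 partners that carry ADAM10 and ADAM17 to the cell surface 8 were measured, with a median log2 ratio of -0.02. None was past the size rule, against 2.30% of all measured genes. RHBDF2, which encodes the ADAM17 escort iRhom2, had 284 counts in the resistant and 217 in the WT library, a ratio of 1.41 (1.18 to 1.70). The tetraspanin genes TSPAN33, TSPAN15 and TSPAN17, whose products bind ADAM10, had ratios of 0.730 (0.500 to 1.06), 1.26 (1.02 to 1.54) and 0.815 (0.719 to 0.925). Of 26 genes whose products ADAM10 or ADAM17 are known to shed, 20 were measured, 16 of them above 0, with a median log2 ratio of 0.16. Of all 14686 measured genes 7292 were above 0, and 2.30% were past the size rule. NRG1, an ERBB receptor ligand, was the 1 past the size rule, with 659 counts in the resistant and 258 in the WT library. TNFRSF1A, the tumour necrosis factor receptor gene, had 799 counts in the resistant and 1569 in the WT library, a ratio of 0.550 (0.505 to 0.600). AREG had 38 counts in the resistant and 17 in the WT library, a ratio of 2.42 (1.33 to 4.57) and a log2 ratio of 0.75. ERBB4 had 26 and 47 counts in the resistant and the WT library, a ratio of 0.598 (0.355 to 0.986) and a log2 ratio of -0.49.

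Matrix proteins that MMP and ADAMTS enzymes cut were low or absent in part. Of 20 such genes 8 were measured, 7 of them above 0, with a median log2 ratio of 0.32. Above 0 were 7292 of all 14686 measured genes. Of the 8 genes 2 were past the size rule, against 2.30% of all measured genes. Among these 2 was LUM, the lumican gene, with 216 counts in the resistant and 93 in the WT library. LUM, COL1A1, COL3A1 and DCN are also in the list of fibroblast markers, whose measured genes had a median log2 ratio of 0.28. Both lists thus rest in part on the same genes, and the part of these genes in the result was not tested. COL4A1 and COL4A2, which encode basement membrane collagen, had ratios of 1.43 (1.35 to 1.51) and 1.28 (1.24 to 1.33). The aggrecan gene ACAN, the main substrate of ADAMTS4 and ADAMTS5, had 0 counts in both libraries, and VCAN, the versican gene, 1 in the resistant and 0 in the WT library. Of the other metzincins and ADAMTS-like genes, 7 of 18 found were measured, with a median of -0.0093. None was past the size rule, against 2.30% of all measured genes. PAPPA, which cleaves IGF-binding proteins, had 508 counts in the resistant and 338 in the WT library, a ratio of 1.62 (1.41 to 1.87). ADAMTSL4, TLL1 and ADAMTSL5 had ratios of 1.35 (1.26 to 1.45), 0.884 (0.839 to 0.932) and 1.15 (0.896 to 1.47).

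**Figure D4:**
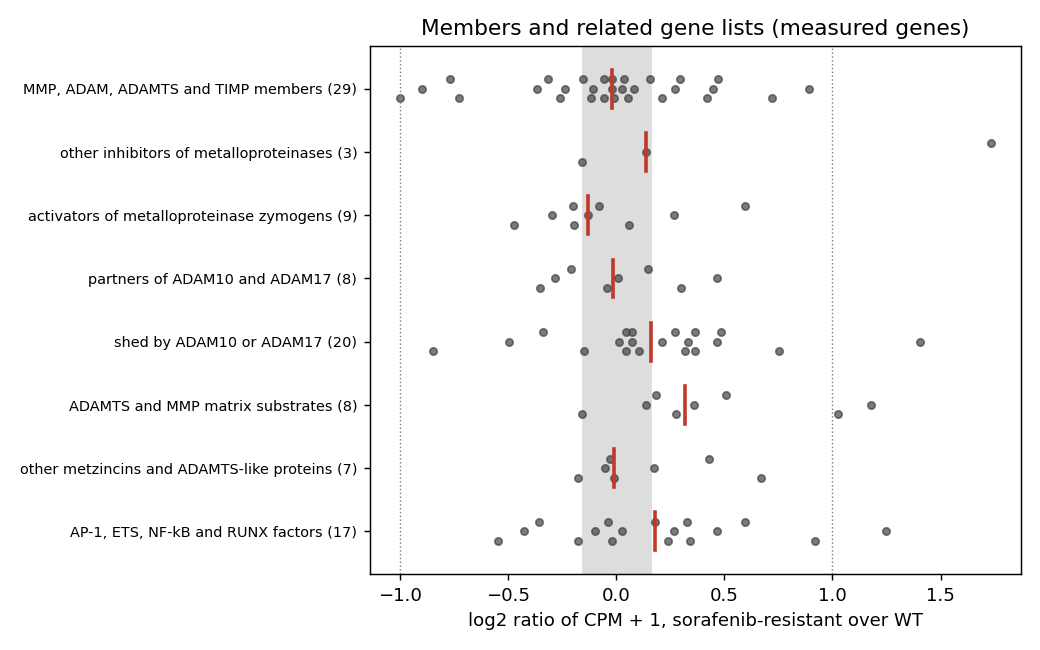
Log2 ratio of CPM plus 1, sorafenib-resistant over WT, of each measured gene among the metalloproteinases and TIMPs and in 7 related lists, with a red bar at each median, the middle 50% of all measured genes in grey and dotted lines at -1 and 1. The metalloproteinase and TIMP genes centre on -0.02, and SPOCK1 at 1.73 lies farthest from 0 among the genes drawn.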

How the data were processed

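The authors deposited whole-number counts and FPKM per gene for each library, per the file headers. Per the submitters' processing notes, bcl2fastq 2.19, HISAT2 2.0.4 and StringTie 1.3.0 were used with GRCh38. The sources used here do not give the annotation, how reads were counted or whether strand was used. The authors' deposited table of their own comparison, 1 library against 1 library, gives log2 fold changes, which equal the log2 FPKM ratio, and a p-value per gene. Its test is not named in the labels, and no p-value was taken from it. Its UP and DOWN calls, which come from 1 library against 1 library, are given as deposited.

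Counts (16811907 resistant, 18067146 WT) were scaled with TMM factors of 0.997 and 1.00 in edgeR 4.0.16 under R 4.3.3, with no model fitted. Ratios are of CPM, with exact Clopper-Pearson 95% intervals of 2 counts given their sum. These cover counting error only, and PCR copies are not independent molecules. Lengths, gene types and exon overlaps came from GENCODE 29, also on GRCh38, which held all 67 genes, 65 with identical coordinates. The calculation was tested on simulated data. Alternatives covered scaling, pseudocount, filter, overlapping genes and FPKM, and the length used for levels was added after the data were seen. The rule for named genes took every measured member and, of each related list, up to 4 measured genes with the largest absolute log2 ratio, besides RECK, BSG, FURIN and TFPI2. ACAN, VCAN, JUNB, JUND, single marker genes and genes sharing exons with members were named after their values were seen. Members and lists were chosen with earlier results of these data known. Of 110 symbols in the related lists 109 were found. Protein sequences were not analysed here. A gene of the matrix substrate list is counted with its list but not reported here.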

Additional observations from a re-analysis of the deposited data

How the results depend on the processing

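With 0 genes higher and 1 lower by the size rule, these counts moved with the treatment of low counts. With 0.5 CPM added in place of 1 CPM, 1 member was higher (MMP14) and 2 were lower (ADAMTS4 and ADAMTS20). With 5 CPM added, 0 were higher and 0 lower, and a larger count of at least 50 left 0 lower because ADAMTS4 has 42 at most. With the deposited FPKM plus 0.1, 1 member was higher (MMP14) and 1 lower (MMP13 in place of ADAMTS4). Over all genes, 285 were higher and 218 lower with 0.5 CPM added, 83 were higher and 68 lower with 5 CPM added, and 312 higher and 232 lower with FPKM, against 192 and 146. Other scalings of the libraries, no filter, and leaving out genes that share exons kept the member counts at 0 and 1. The median log2 ratio of members ranged from -0.03 to 0.0088 over the 8 alternatives. Of the values of single genes and sums under the alternatives, 150 stayed within the counting interval and 8 did not. With 5 CPM added the log2 ratios shrank to -0.62 for ADAMTS10, -0.37 for ADAMTS4, -0.31 for MMP13, -0.21 for ADAMTS20, 0.29 for MMP14 and 0.39 for TIMP4. The others were the TIMP sum, at 0.960 with FPKM and 0.997 with CPM, and the level of TIMP2 over TIMP1, at 1.23 per kilobase of the longest transcript and 0.984 with FPKM. No paired analysis was possible because each group had 1 library, and for the same reason no library could be left out.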
